A study of Mus musculus with 39 samples.

Results

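The interferon gamma-inducible GTPases described here are 10 named mouse genes: the guanylate-binding proteins Gbp2, Gbp3, Gbp5, Gbp7 and Gbp9, and the immunity-related GTPases (IRGs) Igtp, Irgm1, Irgm2, Iigp1 and Ifi47. They were listed by name. Of the 10, 9 were matched to a row of the deposited table of 43430 genes, and for Gbp5 only the promoter was analysed here. RNA was sequenced from 39 libraries of flow-sorted lung cells of C57BL/6J mice. Of these, 20 were lung monocytes of naive animals, and 19 were alveolar macrophages that derive from monocytes, carry little Siglec F on their surface and were sorted after bleomycin, which injures the lung and leaves fibrosis. Within each cell type the mice were young or old and had been given either saline or ISRIB, a compound that counters the integrated stress response (the shut-down of translation by phosphorylated eIF2). This gave 8 groups of 5 libraries, except young ISRIB macrophages with 4. The series text has ISRIB injected into the abdomen each day from day 7, and cells collected on day 21 after bleomycin, a schedule that holds for the bleomycin-treated mice, with none stated for the naive ones. The ages differ between the sample labels (8 to 12 weeks and over 18 months) and the series text (3 to 5 and 18 to 24 months). All macrophages came from bleomycin-treated mice and all monocytes from naive mice, so cell type and lung injury cannot be told apart. The labels do not say that each library came from its own animal, so p-values measure the spread between these libraries, which may be technical in part.

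Interferon gamma, made mainly by T and NK cells, binds the receptor of Ifngr1 and Ifngr2, and the kinases Jak1 and Jak2 then pass the signal on. Genes that answer it often carry gamma-activated sites (GAS), and factors of the IRF family, IRF1 among them, bind interferon-stimulated response elements (ISRE), so many of these GTPases also respond to type I interferon. The guanylate-binding proteins are large GTPases that assemble on vacuoles holding microbes and on bacteria in the cytosol, and feed inflammasomes. The IRGs fall into effectors that load onto such vacuoles, Iigp1 and Ifi47 among them, and the regulators Irgm1, Irgm2 and Igtp (also called Irgm3), which sit on the cell's own membranes and hold the effectors inactive there. Macrophages and monocytes are the cells in which both families are best known.

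The genes lie in clusters (GENCODE vM21, assembly GRCm38). Gbp3 (ENSMUSG00000028268, chr3:142560026-142573209), Gbp2 (ENSMUSG00000028270, chr3:142620602-142638008), Gbp7 (ENSMUSG00000040253, chr3:142530342-142550149) and Gbp5 share one stretch of chromosome 3, all on the plus strand. Gbp9 (ENSMUSG00000029298, chr5:105077630-105139539, minus strand) lies in the chromosome 5 cluster. Igtp (ENSMUSG00000078853, chr11:58199556-58207591) and Irgm2 (ENSMUSG00000069874, chr11:58199618-58222782) overlap on the plus strand of chromosome 11. Irgm1 (ENSMUSG00000046879, chr11:48861968-48871683, minus strand) and Ifi47 (ENSMUSG00000078920, chr11:49076587-49096974, plus strand) are elsewhere on that chromosome. Counts of these paralogs are uncertain to a degree that cannot be measured here, because how reads matching several genes were counted is not given in the sources used here. Exon bases shared with another annotated gene were 8.01% of Igtp and 4.39% of Irgm2 (with each other), 8.77% of Ifi47, 11.3% of Gbp7 and 1.16% of Gbp9.

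Promoter letters are shown because GAS and ISRE sites are how these genes are known to answer interferon. RefSeq (GRCm38.p6) gave a window from 250 bases before to 50 after the start site for 8 of the 10 members, with 2 windows for Gbp3. The windows were searched on both strands for GAS, spelled TTCNNNGAA, and ISRE, spelled GAAANNGAAA. An ISRE was found in 7 of the 8 members and a GAS in 4 (Gbp5, Gbp7, Igtp and Irgm2), each of which also had an ISRE. Over all 32851 RefSeq windows of the same length, 3.44% held an ISRE, 8.30% a GAS and 0.454% both. Ifi47 had neither in its window. The 120 bases before the start site of 6 members follow, 5′ to 3′ in the gene's direction, with the matches in capitals (an ISRE on the opposite strand reads as its reverse complement). They are Gbp2 (chr3:142620543-142620662), Gbp3 (chr3:142559924-142560043, where 2 ISRE matches overlap), Gbp7 (chr3:142530216-142530335, with 2 GAS and then 1 ISRE), Igtp (chr11:58199436-58199555), Irgm2 (chr11:58214857-58214976) and Irgm1 (chr11:48871421-48871540, minus strand, 2 overlapping ISRE matches).
Gbp2: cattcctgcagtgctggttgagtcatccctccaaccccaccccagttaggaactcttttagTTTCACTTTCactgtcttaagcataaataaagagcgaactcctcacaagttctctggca
Gbp3: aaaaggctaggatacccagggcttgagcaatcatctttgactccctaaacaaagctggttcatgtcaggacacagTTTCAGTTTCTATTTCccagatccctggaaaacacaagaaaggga
Gbp7: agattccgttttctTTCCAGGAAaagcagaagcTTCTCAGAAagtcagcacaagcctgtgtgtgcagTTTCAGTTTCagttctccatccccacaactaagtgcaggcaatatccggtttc
Igtp: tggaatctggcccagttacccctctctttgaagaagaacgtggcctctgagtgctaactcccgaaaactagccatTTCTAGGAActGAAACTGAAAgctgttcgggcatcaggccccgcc
Irgm2: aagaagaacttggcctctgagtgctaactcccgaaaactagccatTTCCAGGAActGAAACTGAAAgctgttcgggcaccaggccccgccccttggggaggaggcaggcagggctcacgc
Irgm1: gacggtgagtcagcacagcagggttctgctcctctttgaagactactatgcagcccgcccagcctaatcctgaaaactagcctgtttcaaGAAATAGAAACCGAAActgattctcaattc

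Igtp and Irgm2 carried a GAS followed by an ISRE in the same arrangement: lined up on the GAS, 77 of 80 bases around it were identical, with the pair sitting 30 bases closer to the start site in Igtp. The GAS was at -45 to -37 in Igtp and -75 to -67 in Irgm2, and the ISRE at -34 to -25 and -64 to -55. In Gbp7 the 2 GAS were at -106 to -98 and -87 to -79, and the ISRE at -53 to -44. The single ISRE of Gbp2 was at -59 to -50, and the overlapping matches in Irgm1 ran from -30 to -15. These are matches of letters, not measured binding.

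**Figure D1:**
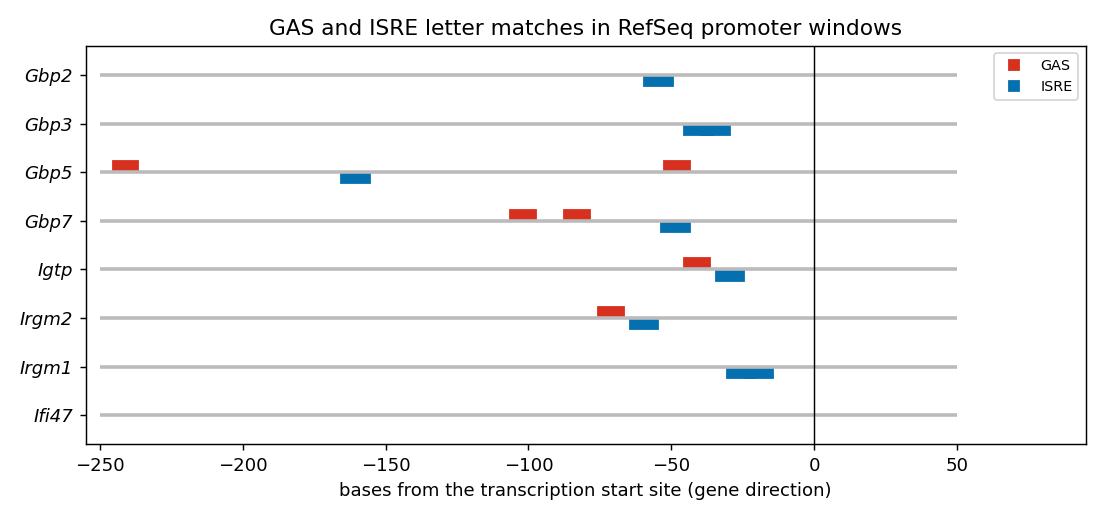
Positions of GAS (red) and ISRE (blue) letter matches in the RefSeq promoter windows of 8 members, in bases from the start site (x axis), with 1 grey line per gene (Gbp3 by its first window). All matches lie before the start site, the ISRE of 6 genes within 64 bases of it, and Ifi47 has none.

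Depth per library was 4595331 to 16056708 counts (median 8628240), which gave each member but Iigp1 at least 1679 counts in each cell type. Within groups, no pair of libraries agreed to within sampling noise (chi-square per degree of freedom 7.04 to 52.8 over 76 pairs). The sorts matched their labels as macrophages and monocytes: Siglecf was 47.2 to 156 CPM (counts scaled to a common library size by trimmed mean of M-values over all libraries) in macrophages and at most 1.56 in monocytes, Mertk, a macrophage receptor, 331 to 621 and at most 7.11, and Ly6c2, a marker of classical monocytes, at most 7.58 and 267 to 654. No cells with high Siglec F were among the libraries, so the low level in the label could not be checked. One library stood apart for the GTPases: replicate 1 of the old ISRIB monocytes had 8 of the 9 members above all 19 other monocyte libraries. Results that rest on it are given with and without it.

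Per kilobase of exon, Gbp2 and Gbp7 led in macrophages with median levels of 15.2 and 12.2 CPM per kb over 19 libraries. Ifi47 (9.35), Gbp3 (8.27), Igtp (8.05), Irgm1 (6.03) and Irgm2 (5.16) came next, and Gbp9 (2.04) and Iigp1 (0.662) were lowest. In monocytes the order was Ifi47 (46.1), Gbp2 (37.9), Gbp3 (30.9), Igtp (20.6), Irgm1 (17.7), Gbp7 (14.3), Irgm2 (12.52), Gbp9 (11) and Iigp1 (0.189), over 20 libraries. Neighbours in these orders overlapped in range over libraries in every case except Gbp9 over Iigp1 in monocytes, where all 20 libraries had more Gbp9. Ifi47, an effector IRG, thus led in monocytes but not in macrophages, while Gbp7 ranked higher in macrophages. Exon length here covers all annotated exons of a gene, so the orders depend on the annotation. By median CPM alone, Gbp7 (68.3) was above Gbp2 (38.1) in macrophages. In monocytes Ifi47 (114) still led, and Irgm1 (102.9) was above Gbp3 (100.7) and Gbp2 (95.25).

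**Figure D2:**
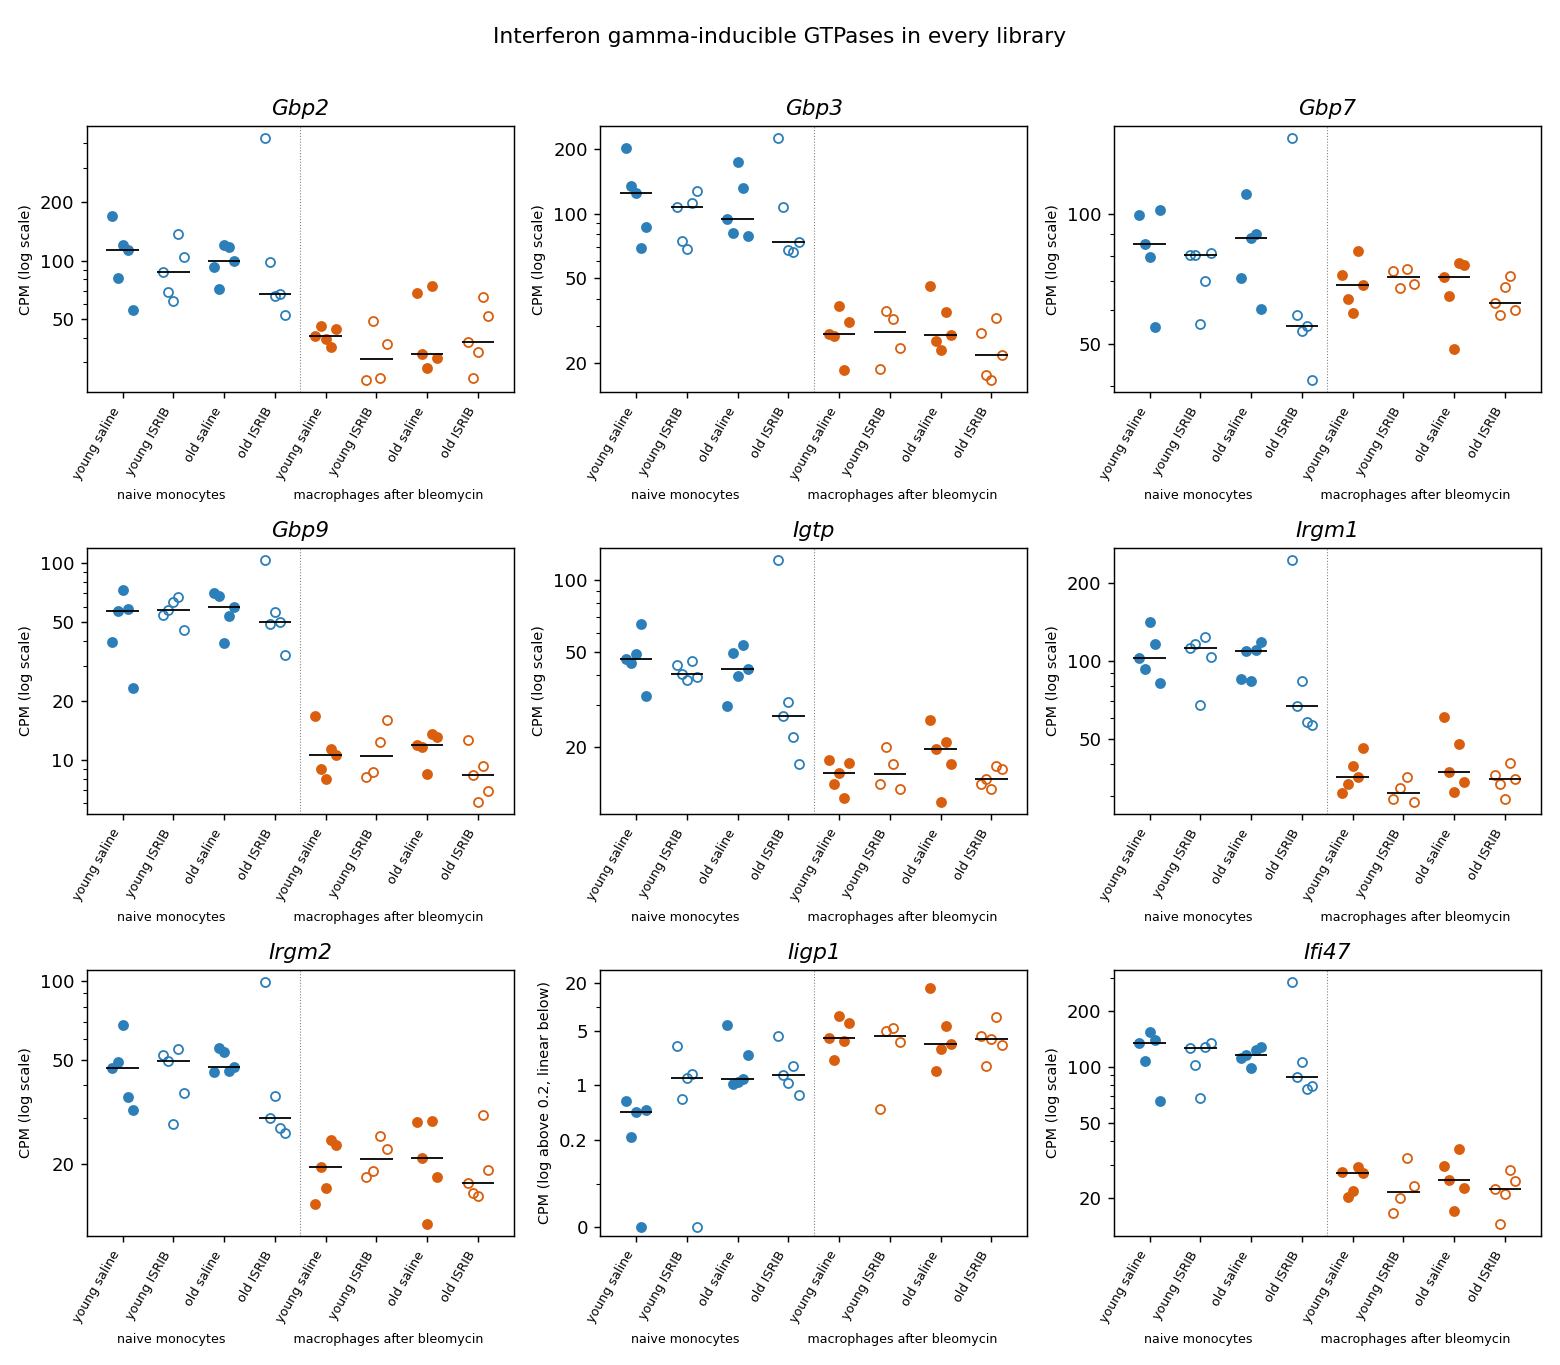
CPM of 9 members (y axis, log scale; for Iigp1 linear below 0.2) in every library of the 8 groups (x axis), blue for naive monocytes and orange for macrophages after bleomycin, filled for saline and open for ISRIB, with a bar at each group's median. In 7 panels most macrophage libraries lie below the monocyte libraries, Gbp7 overlaps, Iigp1 is higher in macrophages, and replicate 1 of the old ISRIB monocytes is the topmost point in 8 panels.

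The first comparison set macrophages of injured lungs against naive monocytes in saline-treated mice. In young mice 7 of the 9 members were lower in macrophages, Iigp1 was higher, and Gbp7 did not pass the test (edgeR's quasi-likelihood test, adjusted p under 0.05 over 13587 genes). In old mice the same 7 were lower, and neither Iigp1 nor Gbp7 passed. Many genes differ between these cells: 29% of all genes tested were called lower in macrophages and 31% higher in young mice, and 27.3% lower and 29.7% higher in old mice. The median log2 fold change of the 9 members was -1.52 in young and -1.19 in old mice, beside 0.01 and 0.00 over all genes. In bulk RNA, fewer cells expressing a gene and less of its RNA per cell cannot be told apart. The range of CPM did not overlap between macrophages and monocytes for 8 members in young mice (40% of all genes) and for 6 in old mice (43.1%).

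Among the guanylate-binding proteins, Gbp9 and Gbp3 fell most. Gbp3 was 27.3, 26.9, 37.03, 18.6 and 31.3 CPM in the young saline macrophages and 203.8, 135.4, 125.5, 69.1 and 86.3 CPM in the monocytes. Every macrophage library was below every monocyte library, with a log2 fold change of -2.13 ± 0.30 (SE, adjusted p = 1.25e-07) in young and -1.84 ± 0.30 (adjusted p = 1.73e-06) in old mice. Gbp9 averaged 11.1 ± 3.43 CPM in young saline macrophages and 50.2 ± 19.1 CPM in the monocytes (SD, n = 5 each). That is 4.56-fold lower (95% interval 3.14 to 6.61, adjusted p = 3.52e-09), and in old mice it was 4.98-fold lower (3.45 to 7.20). Gbp2, which in mouse cells is needed for control of the parasite Toxoplasma, was 41.1, 46.1, 39.7, 35.8 and 44.4 CPM in young saline macrophages against 169.6, 81.4, 120.1, 113.1 and 55.9 CPM in monocytes. The groups did not overlap, and the log2 fold change was -1.38 ± 0.39 (adjusted p = 0.00248). In old saline mice Gbp2 was 68.2, 32.96, 28.2, 74.0 and 31.7 CPM in macrophages and 92.3, 71.5, 119.8, 118.0 and 99.5 CPM in monocytes. There, macrophage replicate 4 was above the lowest monocyte library, and the fold change was -1.10 ± 0.39 (adjusted p = 0.0144). Gbp7 went its own way in this family: it averaged 69.1 ± 8.80 CPM in macrophages and 84.1 ± 18.9 CPM in monocytes of young mice (SD, n = 5 each), the ranges overlapped, and the log2 fold changes were -0.29 ± 0.21 (95% interval -0.71 to 0.14) and, in old mice, -0.32 ± 0.21 (-0.75 to 0.10).

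The 3 regulatory IRGs fell by similar amounts. Irgm1, whose loss leaves mice open to intracellular bacteria, was 30.8, 33.5, 39.3, 35.7 and 46.1 CPM in young saline macrophages and 102.6, 93.2, 142.0, 116.1 and 82.1 CPM in monocytes. It was 2.88-fold lower in macrophages of young mice (95% interval 2.00 to 4.13, adjusted p = 3.31e-06) and 2.40-fold lower in old mice (1.67 to 3.43, adjusted p = 5.89e-05), and no library crossed between the groups at either age. Igtp was 3.09-fold lower in young (2.00 to 4.76) and 2.26-fold lower in old mice (1.48 to 3.45). Irgm2 was 2.36-fold (1.59 to 3.51) and 2.28-fold lower (1.54 to 3.37). The intervals of the 3 genes overlap at both ages.

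The effector IRGs split. Ifi47 was 27.4, 20.2, 21.6, 29.1 and 27.1 CPM in young saline macrophages and 133.4, 107.5, 154.1, 139.7 and 65.5 CPM in monocytes. It was 4.78-fold lower in macrophages (95% interval 3.24 to 7.04, adjusted p = 4.63e-09), and 4.47-fold lower in old mice (3.04 to 6.58). Iigp1, which loads early onto parasite vacuoles, was low in both cell types and moved the other way. In young saline mice it was 4.06, 2.10, 7.72, 3.67 and 6.28 CPM in macrophages and 0.631, 0.218, 0.456, 0 and 0.480 CPM in monocytes (0 to 6 counts a library). The log2 fold change was 3.60 ± 0.78 (adjusted p = 0.000132), with no overlap. In old saline mice it was 17.6, 1.53, 2.93, 5.72 and 3.38 CPM in macrophages and 5.95, 1.03, 1.11, 1.19 and 2.47 CPM in monocytes. These ranges overlapped, and the fold change was 1.41 ± 0.65 (adjusted p = 0.0644). This last result sat at the threshold: DESeq2 called it (adjusted p = 0.0461), as did edgeR without young ISRIB monocyte replicate 5, old saline monocyte replicate 1, or old saline macrophage replicate 2 or 3, while without old saline macrophage replicate 1 the fold change was 0.52.

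**Figure D3:**
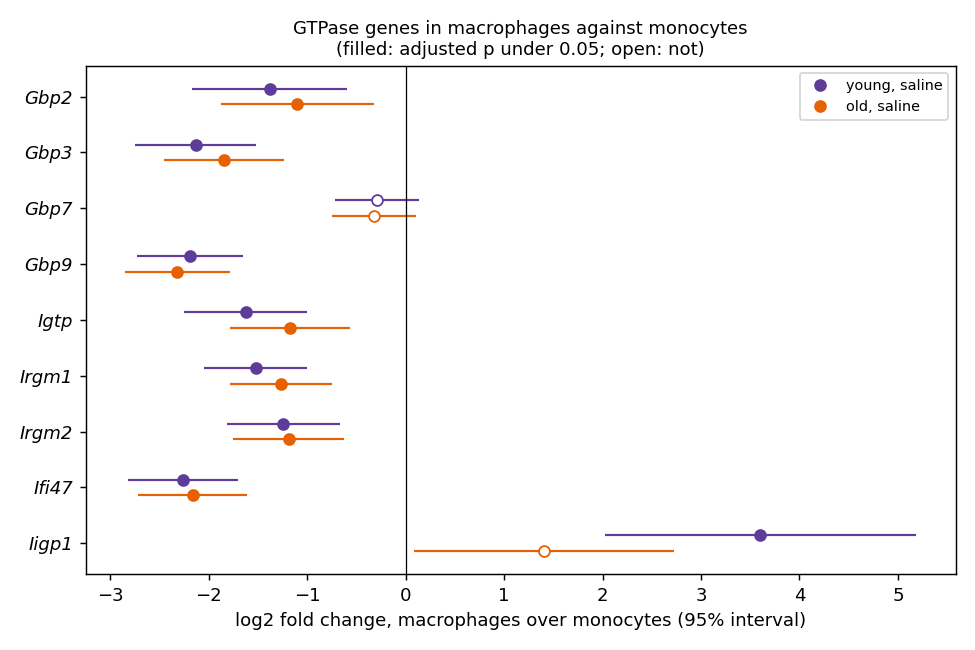
Log2 fold change of 9 members in macrophages over monocytes (x axis, with 95% intervals) in young (purple) and old (orange) saline mice, filled where the adjusted p was under 0.05. In 7 genes both estimates lie below 0 with filled points, Gbp7 is open at both ages, and Iigp1 lies above 0, filled in young mice only.

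Other genes of the pathway differed between the cell types too. Over all genes tested, 29% were lower and 31% higher in macrophages of young mice, and 27.3% and 29.7% of old mice. Of 13 tested GTPases of the same families outside the 10 members, 7 were lower and 3 higher in macrophages of young mice, and 7 and 4 of old mice. Gbp8 was higher (log2 fold change 3.59 ± 0.51 in young and 2.65 ± 0.46 in old mice), with 16.9 ± 5.10 CPM in young saline macrophages and 1.29 ± 1.68 CPM in the monocytes (SD, n = 5 each). The other higher genes were Gm4951, F830016B08Rik and, in old mice, Gbp11, each at most 12.8 CPM in saline macrophages and 0 CPM in at least 1 monocyte library. Lower genes included Gvin1 (-1.98 ± 0.31) and 9930111J21Rik1 (-2.03 ± 0.28) in young mice and Tgtp2 (-2.17 ± 0.62) in old mice. Of 12 genes of interferon gamma and its signalling, 10 were lower and none higher at each age. Ifngr1, the ligand-binding receptor chain, was 215.3 to 261 CPM in young saline macrophages and 608 to 857 CPM in monocytes (-1.72 ± 0.10, adjusted p = 7.24e-18), with no overlap. Irf1, a transcription factor that binds the ISRE, was 41.4 to 66.7 CPM against 113.9 to 276 CPM (-1.95 ± 0.28), and Jak2 was lower by -0.78 ± 0.11. Socs1, the feedback inhibitor of the JAK kinases, did not pass the test at either age (-0.59 ± 0.44 and -0.14 ± 0.43). Ifng itself had no count in any of the 9 young macrophage libraries and at most 1.78 CPM in any monocyte library.

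The same shares of all genes (29% lower and 31% higher in young, 27.3% and 29.7% in old mice) stand beside the next counts. None of the lists of interferon targets, type I signalling genes and partners of the GTPases had a larger share called higher than all genes. Among 22 tested genes listed here as interferon gamma targets outside the GTPases, 10 were lower and 6 higher in macrophages of young mice, and 10 and 5 of old mice. Those higher included Cd274, the ligand PD-L1 (3.72 ± 0.40 in young mice), and the class II antigen-presentation genes H2-Eb1 (2.82 ± 0.35) and H2-Ab1 (2.40 ± 0.32). Those lower included the chemokine Ccl5 in old mice (-2.15 ± 0.53), the co-stimulatory receptor Cd40 (-2.44 ± 0.28) and Slamf8 (-2.90 ± 0.37). Targets induced mainly by type I interferon were lower in 20 of 22 in young and 17 of 22 in old mice, with none higher. Examples in young mice are the antiviral GTPases Mx1 (-3.46 ± 0.33) and Mx2 (-3.60 ± 0.41). Type I signalling genes were lower in 7 of 8 at each age, Irf7 by -3.43 ± 0.33. Of 17 partners and effectors of the GTPases, 9 were lower and 4 higher in young mice: Casp4, which senses bacterial lipopolysaccharide, was lower (-1.54 ± 0.16) and Il18 higher (2.44 ± 0.20). Markers of other cells also differed between the sorts. Over all libraries, 10 neutrophil genes summed to 80.6 to 160.2 CPM in macrophages and 458 to 778 CPM in monocytes, and in young saline mice 3 of the 9 tested were lower in macrophages and 1 higher (median log2 fold change -2.03). In old saline mice 3 were lower and 3 higher (median -0.55). The 9 endothelial genes summed to 117 to 268 and 14.9 to 45.0 CPM, but of 7 tested only 1 was higher and 1 lower (median 0.15), so few genes carried the gap. The 10 epithelial genes summed to 54.2 to 132 CPM in macrophages and 3.17 to 84.5 CPM in monocytes (at most 24.1 outside old ISRIB). Of 7 tested, 6 were higher in macrophages and 0 lower in young saline mice (median 4.68). In old saline mice 5 were higher and 1 lower (median 3.21). The 16 T and NK cell genes summed to 38.5 to 69.9 CPM in young saline macrophages, with Ncr1 and Gzmb at 0, and to 14.6 to 52.8 CPM in the monocytes, with Ncr1 at 0. Gene by gene most went the other way from that sum: of 15 tested, 8 were lower and 2 higher in macrophages (median -2.25). The part of such cells in the differences was not tested.

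ISRIB did not move the members past the test in macrophages. In old macrophages all 9 had a log2 fold change below 0 (-0.60 to -0.07, median -0.27, beside 0.00 over all genes), and none passed: edgeR called 0 of 9 and 0% of all 12171 genes, the smallest adjusted p was 0.562 and no unadjusted p was under 0.05. The limma voom fit also called 0 members, as did DESeq2. DESeq2 gave no adjusted p to 9203 of the 12171 genes, and a member among those could not be called. Irgm1 was 60.9, 37.2, 31.2, 47.6 and 34.1 CPM in old saline and 36.3, 33.3, 29.1, 40.3 and 35.1 CPM in old ISRIB macrophages. The groups overlapped, and the largest saline values came from replicates 1 and 4. Igtp was 26.1, 19.7, 11.8, 21.0 and 16.98 CPM in old saline and 14.1, 14.7, 13.4, 16.7 and 16.3 CPM in old ISRIB macrophages, a change of -0.34 ± 0.18 (adjusted p = 0.584). Without old saline replicate 1, 7 of 9 members were below 0 and the median was -0.10. Without replicate 4 they were 8 and -0.23. In young macrophages 5 of 9 were below 0 (median -0.05), with 0 called (0% of all genes) and no unadjusted p under 0.05.

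Averaged over both ages, the 9 members were again below 0 (-0.52 to -0.01, median -0.20). DESeq2, which gave no adjusted p to 1652 genes, and limma voom called 0 members. By edgeR 0 members were called, beside 0.830% of all genes. The strongest was Irgm1, 37.1 ± 5.93 CPM in young saline, 31.3 ± 3.19 in young ISRIB, 42.2 ± 12.2 in old saline and 34.8 ± 4.11 in old ISRIB macrophages (SD, n = 5, 4, 5 and 5). Its log2 fold change was -0.26 ± 0.11 (95% interval -0.49 to -0.03), and it was the 1 member with an unadjusted p under 0.05 (0.0285, adjusted 0.234). Without old saline replicate 1, 8 of 9 members were below 0 (median -0.12) and edgeR's smallest unadjusted p was 0.0888. Without replicate 4 these were 7, -0.12 and 0.0510. Other genes of the pathway passed in this contrast. Of 21 interferon gamma targets 6 were lower and none higher, among them H2-Eb1 (-0.85 ± 0.13, adjusted p = 0.00569), H2-Ab1 (-0.82 ± 0.14), H2-Aa (-0.72 ± 0.14), Ciita, the master regulator of class II genes (-0.73 ± 0.15), and Cd40 (-1.42 ± 0.33). Of 11 signalling genes 2 were lower, Irf1 (-0.53 ± 0.11, adjusted p = 0.0325) and Socs3 (-0.42 ± 0.10). Of 22 type I targets 21 were below 0 (median -0.49), with 0 called. In old macrophages alone all 22 were below 0 (median -0.58), again with 0 called. The calls of Irf1, Socs3, Ciita and Cd40 were each lost on leaving out any of 7 to 13 of the 19 libraries (Irf1 8, Socs3 13, Ciita 7, Cd40 12), and those of the 3 H2 genes on leaving out none, although 1 fit of all 39 libraries called neither these nor Irf1, Socs3 and Ciita, and limma voom did not call Cd40 (adjusted p = 0.0550). Irf1 was 36.7 to 63.4 CPM in old saline and 29.9 to 43.7 CPM in old ISRIB macrophages. No member differed in its ISRIB effect between the ages: 0 of 9 were called (0% of all genes), no unadjusted p was under 0.05, and the smallest adjusted p was 0.973.

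Age moved no member past the test in macrophages. In saline mice the log2 fold changes of old over young were -0.04 to 0.37 (median 0.14), with 0 of 9 called beside 1.16% of all genes. In ISRIB mice they were -0.37 to 0.34 (median -0.10), with 0 called beside 0.937%. Averaged over treatments the median was 0.00, with 0 called beside 4.86% of all genes and a smallest adjusted p of 0.481. In none of these was an unadjusted p under 0.05, and DESeq2 and limma voom called 0 members. The 95% intervals bound the size of a change missed: for Gbp7 in saline mice -0.27 to 0.19, for Irgm1 -0.14 to 0.49, and for Iigp1 -0.77 to 1.51. The age contrast in saline mice and the ISRIB contrast in old mice share the old saline libraries, and without old saline replicate 1 the former had 5 of 9 members below 0. In the averaged contrast 2 of 21 interferon gamma targets rose with age, Cd274 (0.42 ± 0.08; not called in 1 fit of all 39 libraries) and Ccl5 (2.15 ± 0.43), and 1 of 17 partners, the autophagy adaptor Sqstm1 (0.31 ± 0.06), with none lower. Markers of lymphocytes moved with age too, with 6 of 11 tested T and NK cell genes and 6 of 10 B cell genes higher and none lower: the T and NK cell genes summed to 38.5 to 69.9 CPM in young saline, 44.9 to 141 in young ISRIB, 38.3 to 214 in old saline and 133 to 260 CPM in old ISRIB macrophages, and the 10 B cell genes to 4.99 to 26.6, 10.1 to 28.03, 24.6 to 311 and 133 to 434 CPM. Ifng had counts in 4 of 5 old ISRIB macrophage libraries (at most 1.58 CPM) and 2 of 5 old saline libraries (at most 0.189 CPM). The part of these cells in the levels of the members was not tested.

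**Figure D4:**
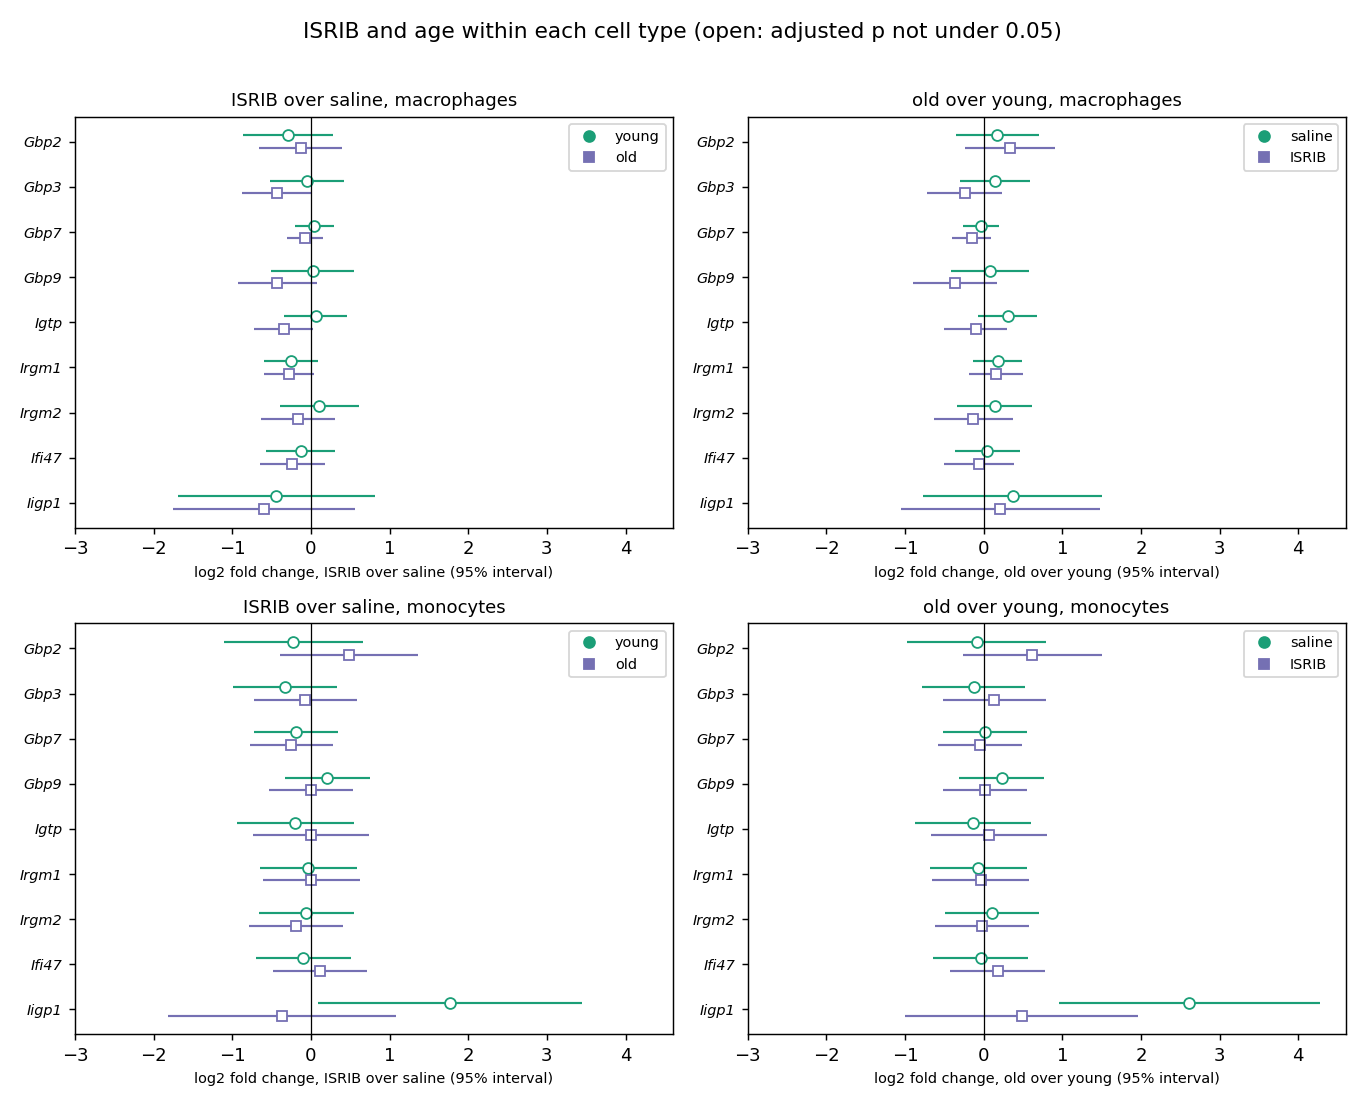
Log2 fold change of 9 members (x axis, with 95% intervals) for ISRIB over saline by age (left) and old over young by treatment (right), in macrophages (top) and monocytes (bottom). No point is filled, since none had an adjusted p under 0.05, and Iigp1 for age in saline monocytes lies farthest from 0 (2.62).

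In monocytes the picture of ISRIB in old mice turned on a single library. Replicate 1 of the old ISRIB monocytes held 427 CPM of Gbp2 against 98.2, 66.0, 67.4 and 52.4 CPM in the other 4 libraries of its group, 6.01 times their mean. Igtp was 121 CPM against 27, 30.98, 22.01 and 17.1 CPM (4.99 times), and Irgm1 246 CPM against 67.0, 83.7, 58.2 and 56.5 CPM (3.71 times). It was highest in its group for all 9 members (2.18 times the mean of the others for Gbp9), and above all 19 other monocyte libraries for all but Iigp1. With all libraries, ISRIB in old monocytes gave 5 of 9 members below 0 and a median of 0.00, with 0 called beside 0% of all 12170 genes and no unadjusted p under 0.05. Without that library, all 9 were below 0 (-0.92 to -0.31, median -0.62), still with 0 called: Igtp was the nearest, with a log2 fold change of -0.84 ± 0.19 and an adjusted p of 0.0870. The other alternatives for this contrast gave a smallest adjusted p over members of 0.676.

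The same library was also high in several genes of interferon gamma signalling and among its targets (the library was picked out after its values were seen). Irf1 was 638 CPM against a mean of 164 in the other 4 libraries, Socs1 13.8 against 4.79, and the chemokine Cxcl9 16.3 against 3.63 CPM. The antigen-processing transporter Tap1 was 480.5 against 183 CPM. Of 21 interferon gamma targets with a mean of at least 1 CPM, 11 were higher there than in every other monocyte library, and of 22 type I targets 1 was, beside 4.32% of all genes. The median ratio to the mean of the other 4 libraries was 1.91 over the interferon gamma targets and 1.51 over the type I targets. Among the latter, Mx1 was 103 against 93.6 CPM, Rsad2 55.5 against 50.8, Isg15 26.8 against 18.6 and Ifit3 32.4 against 19.2 CPM. Ifngr1 was 791 CPM there, below the range of the other 4 (941 to 1049), and Ifng was 0.557 against a mean of 0.556 CPM. None of 15 T and NK cell genes was at its highest in that library, nor any of the 8 classical or 10 nonclassical monocyte genes. The median ratio to the mean of the other 4 libraries was 0.516 over the T and NK cell genes and 1.11 over the classical monocyte genes. It was 0.145 over 6 neutrophil genes and 0.0925 over 4 epithelial genes. Sums do not show this library low in neutrophil genes, since they were 459 to 513 CPM over the whole group. Epithelial sums in the group were 7.96 to 84.5 CPM (median 8.60), so a single high library can set such a mean. The part of other cells in the members' levels was not tested. Its depth lay within the range of its group (6931120 to 12054950 counts).

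**Figure D5:**
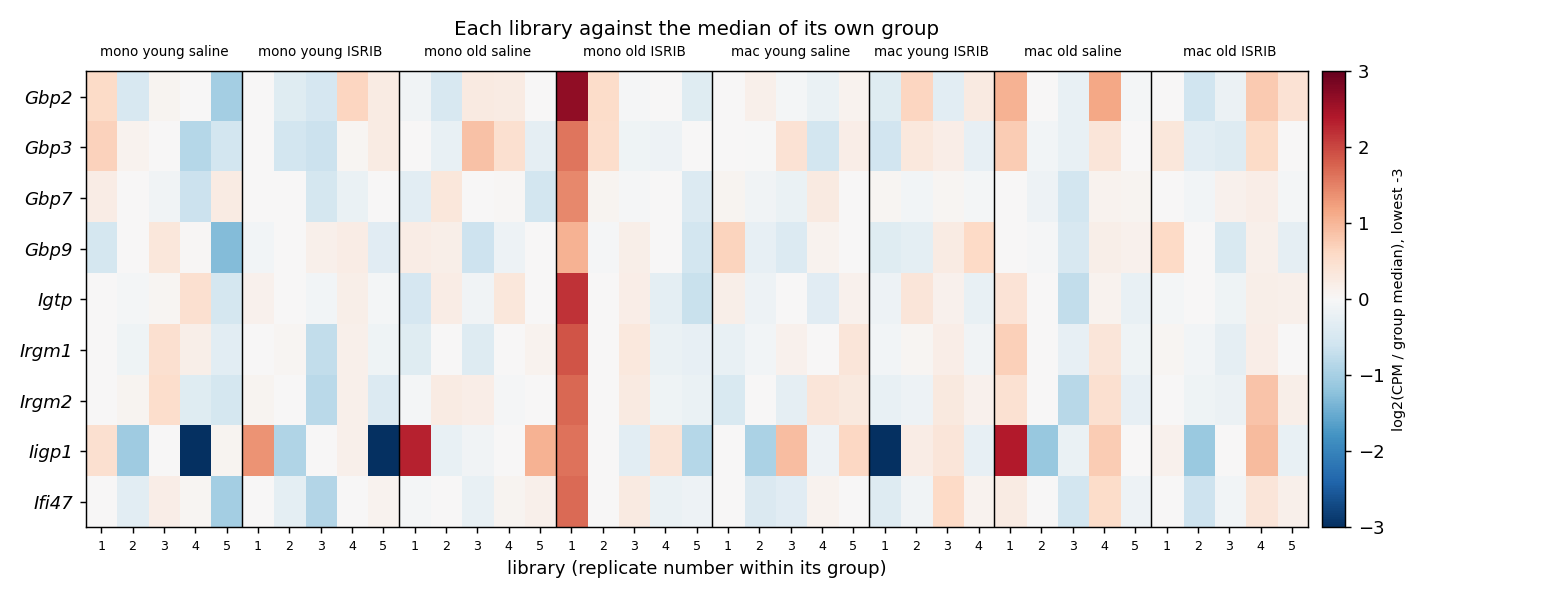
Log2 ratio of each library's CPM to the median of its own group (colour), for 9 members (rows) in 39 libraries (columns, by group and replicate number); values under -3, zeros among them, are drawn at -3. Replicate 1 of the old ISRIB monocytes is high in all 9 rows, old saline macrophage replicates 1 and 4 are high in most, and Iigp1 varies most between libraries.

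The other monocyte contrasts called no member either. ISRIB in young monocytes gave log2 fold changes of -0.33 to 1.77 (median -0.10, 0 called, 0% of all genes), where 1 member, Iigp1, had an unadjusted p under 0.05. Old against young gave a median of -0.04 in saline (0 called, 0.0247% of all genes) and 0.07 in ISRIB mice (0 called, 0% of all genes, no unadjusted p under 0.05). Averaged contrasts gave medians of -0.01 for ISRIB (0% of all genes, no unadjusted p under 0.05) and 0.04 for age (0.123%, 1 unadjusted p under 0.05), with 0 members called in each, and the ISRIB effect did not pass as differing between ages (0 of 9, 0% of all genes, no unadjusted p under 0.05). DESeq2 and limma voom called 0 members in all 7 monocyte contrasts. For ISRIB in old monocytes DESeq2 gave no adjusted p to 2126 genes. Without replicate 1 of the old ISRIB monocytes the age effect in ISRIB mice was below 0 for 9 of 9 members (median -0.38), and the ISRIB effect averaged over ages for 8 of 9 (median -0.37), again with 0 called. The age effect averaged over treatments was then below 0 for 8 of 9 (median -0.23, from 0.04). The difference in ISRIB effect between ages went below 0 for 9 of 9 (median -0.52, from 0.03), with a smallest unadjusted p of 0.0198. The smallest adjusted p were 0.249 and 0.483, with 0 called in both.

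Iigp1 was the member with the widest swing by age in monocytes. It was 0.631, 0.218, 0.456, 0 and 0.480 CPM in young saline and 5.95, 1.03, 1.11, 1.19 and 2.47 CPM in old saline monocytes. The ranges did not overlap, as for 1.44% of all genes, and the log2 fold change was 2.62 ± 0.80 (95% interval 0.95 to 4.28), with an adjusted p of 0.278 and an unadjusted p under 0.05. The alternatives other than leaving out a library gave adjusted p down to 0.0764. All 20 monocyte libraries held 270 counts of Iigp1, with 0 counts in 2 of them, so this gene is measured with far less precision than the others. In ISRIB monocytes it was 0 to 3.21 CPM in young and 0.755 to 4.23 CPM in old mice, which overlap. Of the interferon gamma targets, Ccl5 rose with age in saline monocytes (3.59 ± 0.59, adjusted p = 0.0140), a call lost on leaving out any of 5 of the 20 libraries (at most 0.0786) and under limma voom, and in the averaged contrast (2.74 ± 0.39), where limma voom did not call it (adjusted p = 0.0818). Ccl5 is also abundant in T and NK cells, and all 15 tested T and NK cell genes were above 0 in the saline contrast (median 1.55, 0 called) with sums of 14.6 to 52.8 CPM in young and 43.1 to 175 CPM in old saline monocytes. Their part in this was not tested.

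The effects of age and of ISRIB were not shown to differ between macrophages and monocytes for any member. For age by cell type 0 of 9 were called, beside 0.743% of all genes, with a smallest adjusted p of 0.502. For ISRIB by cell type 0 of 9 were called, beside 0% of all genes, with a smallest adjusted p of 0.678. No unadjusted p was under 0.05 in either, and DESeq2 and limma voom called 0 members. DESeq2 gave no adjusted p to 265 genes for age and 1319 for ISRIB. Leaving out replicate 1 of the old ISRIB monocytes turned the median from -0.05 to 0.20 for age and from -0.20 to 0.15 for ISRIB (macrophage effect minus monocyte effect). The smallest unadjusted p was then 0.00345 and 0.00796, with adjusted values of 0.145 and 0.388 and 0 called in both. Ciita was called for age by cell type (-1.30 ± 0.27, adjusted p = 0.00805), the only called gene of the interferon gamma target list there.

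Within a cell type most members rose and fell together from library to library. Over 19 macrophage libraries the median Pearson correlation of log2 CPM over the 36 pairs of members was 0.53 (Spearman 0.48), from 0.11 for Gbp2 with Gbp9 to 0.74 for Gbp3 with Igtp. Without the 2 libraries farthest from the median, old saline replicates 1 and 4, it was 0.37. Over 20 monocyte libraries it was 0.61 (Spearman 0.49), from -0.01 for Igtp with Iigp1 to 0.91 for Igtp with Irgm1, and 0.36 without old ISRIB replicates 1 and 5. Without those 2 libraries 28 of the 36 pairs were above 0, and Igtp with Iigp1 was lowest at -0.43. After subtracting each group's mean, with all libraries kept, the median was 0.53 in macrophages and 0.66 in monocytes. Gbp7 and Gbp9 went least with the rest in macrophages (median correlation with the other members 0.26 and 0.30), and Iigp1 in monocytes (0.11). The libraries share groups and depth, and these correlations are given as a description.

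Genes outside the list whose log2 CPM followed the members' mean standardised level most closely in macrophages were Nlrc5, the master regulator of class I antigen presentation (Pearson 0.88), Oasl2 (0.87), B2m, the light chain of class I molecules (0.85), and Slfn5 (0.83), over 19 libraries. Without the 2 farthest libraries these were 0.73 to 0.79. In monocytes they were Calhm6 (0.90), the GTPases Gbp2b (0.89) and Gm12250 (0.88), Trafd1 (0.88) and the transporter Tap1 (0.87), over 20 libraries, and 0.62 to 0.73 without the 2 farthest. Of these 9 genes, 2 are on the interferon gamma target list (Nlrc5 and Tap1), 2 are among the related GTPases, and 1 (Oasl2) is on the type I target list.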

How the data were processed

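RNA was sequenced with polyA selection from 3 ng of input, per the labels' protocols. The submitters' processing notes name bcl2fastq 2.19.1, FastQC, Trimmomatic 0.36, STAR 2.6.0, HTSeq 0.11.2 and the build mm10, without roles or settings. The deposited table holds raw read counts for Ensembl gene IDs, 1 column for each library, with no scaling. The sources used here do not say how strand and multiply matching reads were treated. Symbols came from GENCODE vM21, which had 42462 of the 43430 IDs.

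Contrasts were fitted in R 4.3.3 with edgeR 4.0.16 (glmQLFit and glmQLFTest) after TMM scaling. Low genes were dropped by filterByExpr at a minimum count of 10 and a minimum total of 15, and p-values were adjusted by Benjamini-Hochberg over all genes of a fit. Fits used the 19 macrophage libraries (12171 genes), the 20 monocyte libraries (12170), or all 39 for contrasts across cell types (13587), with 1 mean per group and no covariate. All 9 matched members passed the filter in each fit. The biological coefficient of variation was 0.206, 0.258 and 0.246. SE is of the log2 fold change, and intervals are 95%. CPM were scaled by TMM over all 39 libraries, and per kb means per 1000 exon bases of the GENCODE gene.

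Alternatives were DESeq2 1.42.0, limma voom (limma 3.58.1), DESeq2's size-factor scaling in edgeR, no filter, 1 fit of all libraries, a replicate block, CPM by library total, and leaving out each library. From each list other than the members, at most 5 called genes per comparison with the largest fold change were named, and Ifng, Ifngr1, Ifngr2, Jak2, Irf1 and Socs1 were open to naming whatever their values. The 5 genes most like the members in each cell type were also to be named. The result of 1 gene that these rules name is not reported here. Genes shown for the old ISRIB monocyte library were chosen after its values were seen. The members and the gene lists were chosen with earlier results of these data known. With 5 libraries or 4 in a group, the 95% intervals show the size of change that could be missed. Gene lists of other cell types gave summed CPM and counts of called genes. Counts of Gbp5, and of Gbp6, Gbp10 and Mb21d1 of the lists, were not analysed here.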

Additional observations from a re-analysis of the deposited data

Results flagged for a closer look

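In 72 groups of 4 or 5 libraries (9 members, 8 groups), 9 had a library whose gap to the nearest other was wide for the range of its group (Dixon's test at 95%), where chance gives about 1 in 20 for independent groups. The members rise and fall together between libraries, so the 72 are not independent and that rate cannot weigh the 9. Of the 9, 7 were replicate 1 of the old ISRIB monocytes: Gbp2 at 426.6 CPM, Gbp3 at 225.8, Gbp7 at 149.7, Igtp at 121.2, Irgm1 at 246.4, Irgm2 at 99.77 and Ifi47 at 285.6 CPM. The other two were Irgm2 at 30.77 CPM in old ISRIB macrophage replicate 4 and Iigp1 at 17.56 CPM (158 counts) in old saline macrophage replicate 1. The other libraries of those groups held 15.1 to 19.04 CPM of Irgm2 and 1.53 to 5.72 CPM of Iigp1. Old ISRIB macrophage replicate 4 was highest in its group for 8 of 9 members, and old saline macrophage replicate 3 lowest in its group for 8 of 9. Why these libraries differ was not tested.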

How the results depend on the processing

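The count of members called was the same in all 18 comparisons under every alternative that was run and on leaving out any library, within 1.5 times: 8 and 7 in macrophages against monocytes (young and old saline) and 0 elsewhere, except that in old saline Iigp1 also passed (8 members) under DESeq2 and on leaving out each of 4 libraries. No called member changed direction. With a replicate block the counts were 8, 7 and 0. DESeq2 left genes without an adjusted p in some contrasts, most for ISRIB in old (9203 genes) and young macrophages (5663). A member among those genes could not be called by it. Over 57 same-numbered pairs within cell types the correlation of deviations was -0.19 to 0.24, and in 11 of the 57 the same number was the best match. In old ISRIB against old saline macrophages it was the best match in 3 of 5. These correlations cannot exclude a shared batch, and same-numbered macrophage and monocyte libraries were not compared. Counts over all genes moved more. ISRIB averaged over ages in macrophages gave 101 genes, 104 with DESeq2's size factors, 640 with no filter, 440 with DESeq2, 169 with limma voom, 343 with a replicate block, 17 in 1 fit of all libraries, and 13 to 649 on leaving out 1 library. ISRIB in old macrophages gave 0 genes, but 220 with no filter, 43 with DESeq2 and up to 30 on leaving out 1 library, and in young macrophages 0, with 224 and 105 under those settings, 10 with a replicate block and up to 304 on leaving out 1 library. Age in saline macrophages gave 141 genes, 468 with no filter, 294 with DESeq2 and 60 in 1 fit of all libraries, age in ISRIB macrophages 114, 405, 260 and 50 under the same settings, and age averaged over treatments 592, 975, 819 and 340. Leaving out 1 library gave 47 to 289, 33 to 161 and 415 to 723. Monocyte counts under no filter, DESeq2 and 1 fit of all libraries were 21, 14 and 17 for ISRIB in old mice (0 as reported), 15, 46 and 34 for age in saline (3), 41, 22 and 33 for age in ISRIB (0), and 40, 83 and 44 for age averaged (15). Leaving out 1 library gave 0 to 8, 0 to 17 and 6 to 25 for these 3 age contrasts. The ISRIB effect by age gave 33 with no filter in macrophages, and 12 with no filter and 22 in 1 fit of all libraries in monocytes (0 in each as reported). Age by cell type gave 101 genes and 222 with DESeq2, and ISRIB by cell type 0, 17 with no filter and 43 with DESeq2. Counts limit Iigp1 most.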
